A study of Mus musculus with 20 samples.

Results

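Lhx6, Lhx8, Nkx2-1, Sst, Npy, Chat, Slc18a3, Nos1, Maf and Sox6 are 10 genes that mark or specify interneurons and cholinergic neurons of the forebrain. They were picked by name for what they are known to do and matched by Entrez identifier to a table of 27179 genes measured by RNA sequencing of bulk tissue, in which all 10 were present. The table holds 20 libraries from mice of the strain C57BL/6, 5 from striatum labelled wild type, 5 from striatum labelled Helios -/-, 5 from hippocampus labelled wild type and 5 from hippocampus labelled Helios -/-. Helios is a transcription factor with zinc fingers and the product of Ikzf2, and the labels describe the mutants as full knockouts, so that the gene is lost in every cell and not in 1 cell type. No treatment, age or sex is given for any group in the labels used here, nor do they say whether each library is a different animal. The p-values below therefore speak of spread among libraries, which may be technical.

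Many of the GABAergic interneurons of striatum and hippocampus are born in the medial ganglionic eminence, a proliferative zone of the embryonic ventral forebrain. Nkx2-1 is the homeodomain factor that sets the identity of this zone. Lhx6, a LIM homeodomain factor, acts downstream of it in migrating interneurons, and Sox6 and Maf act later in the same cells. Lhx8, another LIM homeodomain factor, is required for the cholinergic interneurons of the striatum, which make acetylcholine with choline acetyltransferase (Chat) and load it into vesicles with the transporter VAChT (Slc18a3). Somatostatin (Sst), neuropeptide Y (Npy) and neuronal nitric oxide synthase (Nos1) are the products of a class of striatal interneurons that makes all 3, and of several classes in hippocampus. In bulk tissue, fewer cells of a type and less RNA per cell cannot be told apart.

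Levels are given as RPKM, in which reads are divided by the length of the gene and by the library total. The library totals behind them ranged from 17727887 to 36779234 reads. Ikzf2 was measured first, as a check of the labels. In striatum it lay between 2.09 and 3.66 RPKM in the 5 libraries labelled wild type and between 0.76 and 1.11 RPKM in the 5 labelled knockout. In hippocampus the labelled groups overlapped. Each library also carries a code, and 2 codes have opposite genotype labels in the 2 tissues. Code 7_1 is labelled knockout replicate 6 in striatum and wild type replicate 6 in hippocampus, where it held 0.782 RPKM of Ikzf2. Code 7_6 is labelled wild type replicate 5 in striatum and knockout replicate 5 in hippocampus, where it held 1.43 RPKM, inside the range of 1.32 to 1.61 RPKM of the other hippocampal libraries labelled wild type. Both hippocampal labels thus go against Ikzf2, and comparisons of genotype below are also given without both codes. Of the other libraries, the hippocampal one labelled knockout replicate 8 stood apart by gene length. Genes under 1 kb had there a median difference of 0.55, and genes over 5 kb of -0.65, from the mean of the other hippocampal libraries in log2(RPKM + 1). The striatal library labelled wild type replicate 4 had a summed level of 66.1 RPKM over 5 markers of meninges, against 0.998 to 6.86 RPKM in the other striatal libraries.

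The cholinergic genes were detected in striatum and were at or near 0 in hippocampus. Lhx8 measured 3.58, 7.46, 16.2, 3.16 and 4.1 RPKM in the striatal libraries labelled wild type, replicates 1 to 5 in that order. In those labelled knockout, replicates 6 to 10, it measured 18.4, 5.18, 5.79, 11.3 and 7.19 RPKM. Both labelled genotypes thus held libraries with several times the Lhx8 of others, and their ranges overlapped. In hippocampus, 7 reads of Lhx8 were found over all 10 libraries, with at most 1 in any library.

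Slc18a3 showed the same order of libraries at a lower level. It measured 0.977, 1.74, 3.48, 0.857 and 1.11 RPKM in striatum labelled wild type. In striatum labelled knockout it measured 3.71, 1.19, 1.43, 2.29 and 1.6 RPKM. Wild type replicate 3 and knockout replicate 6 were the highest of their groups for Lhx8 and Slc18a3 alike. The 10 hippocampal libraries held 45 reads of Slc18a3 in all, and levels of 0.0206 to 0.112 RPKM, below every striatal library.

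Chat was measured at a low level even in striatum. It ran from 0.17 to 0.552 RPKM in the libraries labelled wild type (0.308 ± 0.151, SD, n = 5) and from 0.174 to 0.669 RPKM in those labelled knockout (0.36 ± 0.202, SD, n = 5). These values rest on 12 to 57 reads per library. In hippocampus 3 reads of Chat were found in 2 of the 10 libraries. Slc18a3 lies inside Chat on the same strand, at chr14:32462437-32464850 within chr14:32408203-32465909 (mm10, minus strand), and it is not stated how reads over both genes were counted. Their separate levels are uncertain for that reason.

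The promoter windows of the cholinergic genes are shown because these genes moved together from library to library in striatum, as described below. Each spans the start of its gene, on GRCm38, the assembly also called mm10, as given by RefSeq. Of the 10 genes, 9 had such an entry, and Maf had none. The motifs searched, on both strands, were TGACGTCA (the cAMP response element), CAAGTG (the core bound by factors of the NKX2 family), CCAAT (the CCAAT box), TAATTA (a core of homeodomain factors) and TATAAA. None of these motifs overlaps another in the windows shown, and matches are in capitals.
Slc18a3, chr14:32464801-32465100, minus strand: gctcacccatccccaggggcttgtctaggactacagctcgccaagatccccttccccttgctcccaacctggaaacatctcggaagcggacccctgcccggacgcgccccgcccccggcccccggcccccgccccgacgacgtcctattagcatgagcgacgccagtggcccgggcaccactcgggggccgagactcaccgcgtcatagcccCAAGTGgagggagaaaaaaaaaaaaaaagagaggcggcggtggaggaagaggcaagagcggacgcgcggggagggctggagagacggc
Chat, chr14:32465860-32466159, minus strand: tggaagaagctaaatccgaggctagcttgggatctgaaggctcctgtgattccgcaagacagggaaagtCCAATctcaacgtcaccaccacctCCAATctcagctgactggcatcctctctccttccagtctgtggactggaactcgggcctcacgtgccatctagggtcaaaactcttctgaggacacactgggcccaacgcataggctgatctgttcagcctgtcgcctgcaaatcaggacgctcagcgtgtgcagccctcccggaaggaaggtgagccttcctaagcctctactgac
Lhx8, chr3:154330511-154330810, minus strand: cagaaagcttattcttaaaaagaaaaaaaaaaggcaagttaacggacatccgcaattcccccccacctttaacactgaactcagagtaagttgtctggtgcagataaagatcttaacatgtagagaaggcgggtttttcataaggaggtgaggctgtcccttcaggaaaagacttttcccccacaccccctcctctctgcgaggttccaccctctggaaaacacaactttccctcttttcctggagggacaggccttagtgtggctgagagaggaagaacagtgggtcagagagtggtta

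The window of Slc18a3 holds CAAGTG once, starting at base 213 of the window. CAAGTG is found in 13.6% of the 32851 mouse promoter windows of this length. The window of Chat holds CCAAT at bases 70 and 94, a motif found in 37.4% of all windows. The window of Lhx8 holds none of the motifs searched. A match describes letters and shows no binding.

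**Figure D1:**
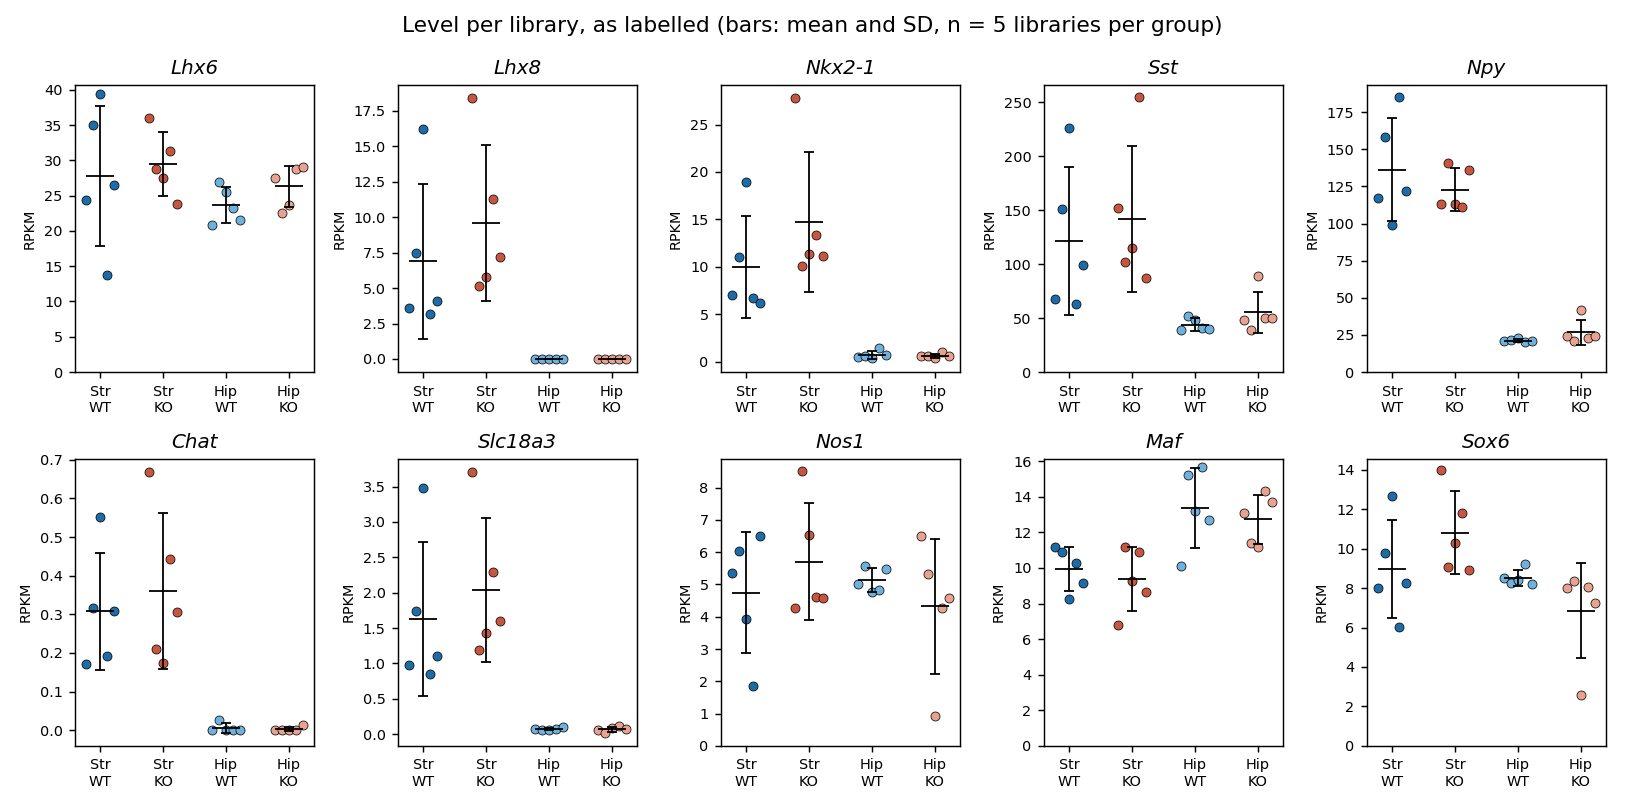
Level of each of the 10 genes in RPKM (vertical axis, linear) in every library, by tissue (Str, striatum, and Hip, hippocampus) and labelled genotype (WT and KO). Points are libraries and bars are the mean and SD of 5 libraries. Lhx8, Slc18a3 and Chat lie near 0 in hippocampus, Npy lies between 99 and 185 RPKM in striatum and between 20.2 and 41.5 RPKM in hippocampus, and the labelled genotypes overlap in every panel.

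Nkx2-1 was also far higher in striatum. It measured 7.07, 11, 18.9, 6.73 and 6.2 RPKM in the striatal libraries labelled wild type. Those labelled knockout measured 27.8, 10.1, 11.3, 13.4 and 11.1 RPKM. Knockout replicate 6 stood alone at the top, and the other 4 libraries of its group lay within the wild type range. Hippocampal libraries held 0.358 to 1.47 RPKM, with 20 to 117 reads each.

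Lhx6 was measured at similar levels in both tissues. It averaged 27.8 ± 9.91 RPKM in striatum labelled wild type and 29.5 ± 4.55 RPKM in striatum labelled knockout, and 23.6 ± 2.56 and 26.3 ± 2.95 RPKM in hippocampus (SD, n = 5 each). The striatal libraries ran from 13.8 to 39.4 RPKM and the hippocampal ones from 20.9 to 29 RPKM, so that the range in hippocampus lay inside that in striatum. The lowest striatal value belonged to wild type replicate 4, the library with the highest level of meningeal markers. Sox6 averaged 8.96 ± 2.47 and 10.8 ± 2.11 RPKM in striatum and 8.52 ± 0.411 and 6.86 ± 2.43 RPKM in hippocampus, wild type first. Maf, a basic leucine zipper factor, was the 1 member lower in striatum, with 9.96 ± 1.23 and 9.36 ± 1.79 RPKM there against 13.4 ± 2.22 and 12.7 ± 1.4 RPKM in hippocampus.

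The products of interneurons did not share 1 pattern. Npy measured 117, 158, 99, 185 and 122 RPKM in striatum labelled wild type and 113, 141, 113, 111 and 136 RPKM in striatum labelled knockout. In hippocampus it measured 20.6, 21.7, 22.8, 20.2 and 20.7 RPKM in the libraries labelled wild type, replicates 1 to 4 and 6. Those labelled knockout, replicates 5 and 7 to 10, measured 24.5, 20.6, 41.5, 22.7 and 24 RPKM. No hippocampal library reached the lowest striatal one.

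Sst measured 67.2, 151, 226, 63.2 and 99.6 RPKM in striatum labelled wild type. In striatum labelled knockout it measured 152, 102, 115, 255 and 86.7 RPKM. The value of 255 RPKM came from knockout replicate 9. In that library 4 markers of diencephalon summed to 17.7 RPKM, against 1.15 to 7.09 RPKM in the other striatal libraries. The part of dissection in this value of Sst was not tested. Hippocampal libraries ran from 38.7 to 52.2 RPKM in those labelled wild type and from 39.2 to 88.9 RPKM in those labelled knockout. The highest hippocampal value, in knockout replicate 8, passed the lowest striatal ones, and without that library the tissues did not overlap. Nos1 ran from 1.86 to 8.52 RPKM over the striatal libraries and from 0.926 to 6.5 RPKM over the hippocampal ones, with the lowest value of striatum in wild type replicate 4 and that of hippocampus in knockout replicate 8.

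The promoter window of Sst is shown because it carries the well known cAMP response element of this gene, in capitals.
Sst, chr16:23890795-23891094, minus strand: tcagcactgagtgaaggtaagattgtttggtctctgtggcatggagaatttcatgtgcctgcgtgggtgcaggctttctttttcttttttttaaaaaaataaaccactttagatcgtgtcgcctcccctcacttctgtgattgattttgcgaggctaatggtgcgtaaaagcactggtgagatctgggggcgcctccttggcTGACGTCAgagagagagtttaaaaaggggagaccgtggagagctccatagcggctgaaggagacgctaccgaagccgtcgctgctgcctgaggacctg

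That element, TGACGTCA, starts at base 203 of the window and is found in 1.79% of all windows. Of the 9 members with a window, none holds TAATTA, which is found in 5.29% of all windows.

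In hippocampal knockout replicate 8, in which long genes were low and short genes high, the short genes Sst (599 bases in the RPKM values) and Npy (547 bases) were the highest of the hippocampus at 88.9 and 41.5 RPKM. Sox6 (8486 bases) and Nos1 (4388 bases) were the lowest of the hippocampus there, at 2.58 and 0.926 RPKM. Lhx6 (3577 bases) and Maf (3642 bases), at 23.7 and 11.2 RPKM, lay within the range of the other hippocampal libraries. The part of gene length in these values was not tested beyond leaving the library out.

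The tissues were compared over all 20 libraries with limma on log2(RPKM + 1), averaged over both labelled genotypes. The call rule was an adjusted p (Benjamini-Hochberg, over the 15374 genes tested) below 0.05. Of the 10 members, 9 passed the filter of at least 0.5 RPKM in at least 5 libraries, and Chat did not. Of those 9, 6 were called, 5 higher and 1 lower in striatum, where 48.2% of all genes tested were called, 22.9% higher and 25.2% lower. Lhx8 and Slc18a3 passed the filter through striatum alone and so had to differ, and 4 of the other 7 were called. The differences, in log2(RPKM + 1) with their SE, were 2.99 ± 0.23 for Lhx8 (adjusted p = 1.55e-09) and 2.9 ± 0.19 for Nkx2-1 (adjusted p = 1.91e-10). Npy was higher by 2.39 ± 0.12 (adjusted p = 2.17e-12), and all 10 striatal libraries lay above all 10 hippocampal ones for these 3 genes. Slc18a3 was higher by 1.33 ± 0.14 (adjusted p = 2.1e-07), also without overlap, and 14.7% of all genes tested had tissues that did not overlap. Sst was higher by 1.29 ± 0.22 (adjusted p = 8.45e-05) and Maf was lower, by -0.4 ± 0.089 (adjusted p = 0.000889).

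For Lhx6 the difference between tissues was 0.15 ± 0.13 (95% interval -0.13 to 0.43, adjusted p = 0.37), and for Nos1 0.13 ± 0.21 (-0.32 to 0.57, adjusted p = 0.65). Sox6 differed by 0.34 ± 0.15 (adjusted p = 0.0737). Without striatal wild type replicate 4, Lhx6 was called at 0.26 (adjusted p = 0.0247) and Sox6 at 0.4 (adjusted p = 0.0353), both higher in striatum, so 1 library decides these calls. The value for Nos1 turned to -0.039 without hippocampal knockout replicate 8, and to -0.17 in the libraries labelled wild type alone. Chat differed by 0.4 in mean log2(RPKM + 1), with all 10 striatal libraries higher (exact permutation test, two-sided, p = 1.08e-05, the smallest that 184756 splits can give).

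**Figure D2:**
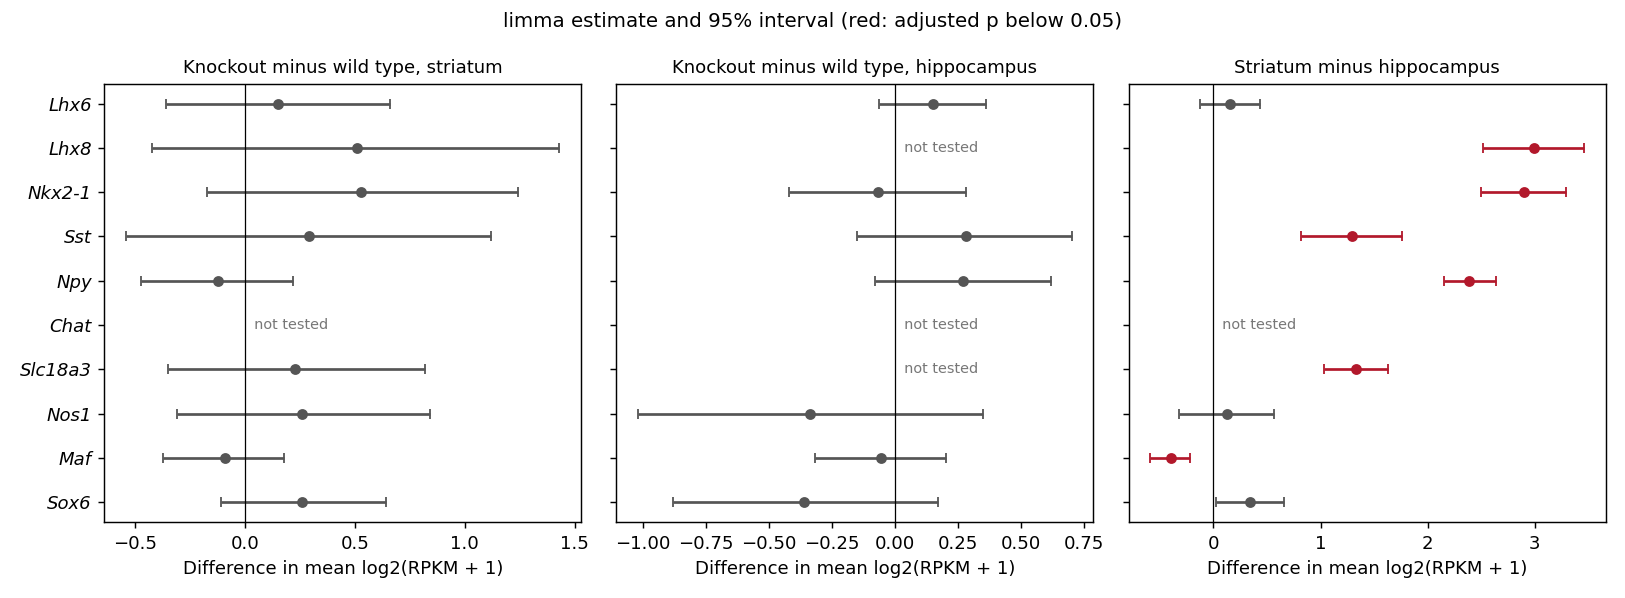
Difference in mean log2(RPKM + 1) with its 95% interval from limma (horizontal axis, with a separate scale in each panel) for each gene, knockout minus wild type in striatum and in hippocampus and striatum minus hippocampus. Red points have an adjusted p below 0.05, and genes under the filter are marked as not tested. Every interval of the genotype panels spans 0, while Lhx8, Nkx2-1, Npy, Slc18a3 and Sst lie above 0 and Maf below it between tissues.

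Between labelled genotypes, no member was called in either tissue. In striatum 9 members were tested, without Chat, of 14948 genes, and 0 were called, where 0.0134% of all genes tested were called (Ikzf2, lower by -0.91, and Wdfy1). At an unadjusted p below 0.05 the count of members was also 0, where 4.01% of all genes passed. The groups overlapped for every member, while they did not for 0.803% of all genes tested. The largest differences were those of Nkx2-1, 0.53 ± 0.32 (95% interval -0.17 to 1.24, adjusted p = 0.987), and Lhx8, 0.51 ± 0.42 (-0.42 to 1.43, adjusted p = 0.987). With this spread between libraries the interval for Lhx8 leaves room for a difference of 1.43 in log2(RPKM + 1).

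The sizes of several of these differences depend on the libraries kept. Without codes 7_1 and 7_6, Nkx2-1 averaged 10.9 ± 5.64 RPKM in striatum labelled wild type and 11.5 ± 1.39 RPKM in striatum labelled knockout (SD, n = 4 each), and its difference was 0.17 (adjusted p = 0.964). Lhx8 then averaged 7.61 ± 6.08 and 7.36 ± 2.75 RPKM, and Slc18a3 differed by 0.003 (adjusted p = 0.998), against 0.23 ± 0.27 with all libraries. Nos1 moved the other way, to 0.46 (adjusted p = 0.949), the largest difference among the members in that fit. Sst was then at 0.21, Sox6 at 0.16, Lhx6 at 0.076, Npy at -0.13 and Maf at -0.019. With all libraries, Sst differed by 0.29 ± 0.38, Nos1 and Sox6 by 0.26 each (SE 0.26 and 0.17), Lhx6 by 0.15 ± 0.23, Npy by -0.12 ± 0.16 and Maf by -0.092 ± 0.12 (adjusted p = 0.987 for each, limma). For Chat the exact permutation test, two-sided, gave p = 0.69 over 252 splits, of which the smallest possible p is 0.00794. In the authors' deposited table the log2 change in striatum was 0.22 (SE 0.12, p = 0.0697) for Nkx2-1, 0.083 (SE 0.099, p = 0.4) for Lhx8 and 0.08 (SE 0.11, p = 0.487) for Slc18a3.

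In hippocampus 7 members were tested of 14872 genes, without Lhx8, Chat and Slc18a3, and 0 were called by limma, where 0% of all genes tested were. At an unadjusted p below 0.05 the count was 0 members, where 4.5% of all genes passed, and no member's groups were free of overlap, against 2.47% of all genes. The differences ran from -0.36 ± 0.24 for Sox6 and -0.34 ± 0.31 for Nos1 to 0.27 ± 0.16 for Npy and 0.28 ± 0.19 for Sst (adjusted p = 0.711 for each). Without both codes they were -0.44 for Sox6, -0.47 for Nos1, and 0.28 each for Npy and Sst (adjusted p = 0.69 for each, limma). Without knockout replicate 8 as well, they were -0.11 for Sox6, -0.08 for Nos1, 0.068 for Npy and 0.045 for Sst. Sox6 then averaged 8.59 ± 0.433 RPKM in 4 libraries labelled wild type and 7.9 ± 0.574 RPKM in 3 labelled knockout. Lhx6 differed by 0.15 ± 0.097 (adjusted p = 0.711), Nkx2-1 by -0.07 ± 0.16 (adjusted p = 0.839) and Maf by -0.057 ± 0.12 (adjusted p = 0.826). Whether the genotype difference depends on the tissue was tested as an interaction over 15374 genes. Of 9 members 0 were called, where 0% of all genes were called and 3.41% had an unadjusted p below 0.05. The smallest p belonged to Sox6, at 0.62 ± 0.31 (limma, 95% interval -0.02 to 1.26, adjusted p = 0.797), and its value was 0.27 without hippocampal knockout replicate 8 and both codes.

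The cholinergic genes, Nkx2-1, Sst and Nos1 varied widely from library to library within striatum. The highest striatal library held 5.82 times the Lhx8 of the lowest, 4.57 times the Nos1 and 4.48 times the Nkx2-1. For Slc18a3 this was 4.33 times and for Sst 4.03 times, but only 1.65 times for Maf and 1.87 times for Npy. The libraries were also not ordered by genotype. Ranked by Lhx8, knockout replicate 6, wild type replicate 3 and knockout replicate 9 were at the top and wild type replicates 5, 1 and 4 at the bottom.

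**Figure D3:**
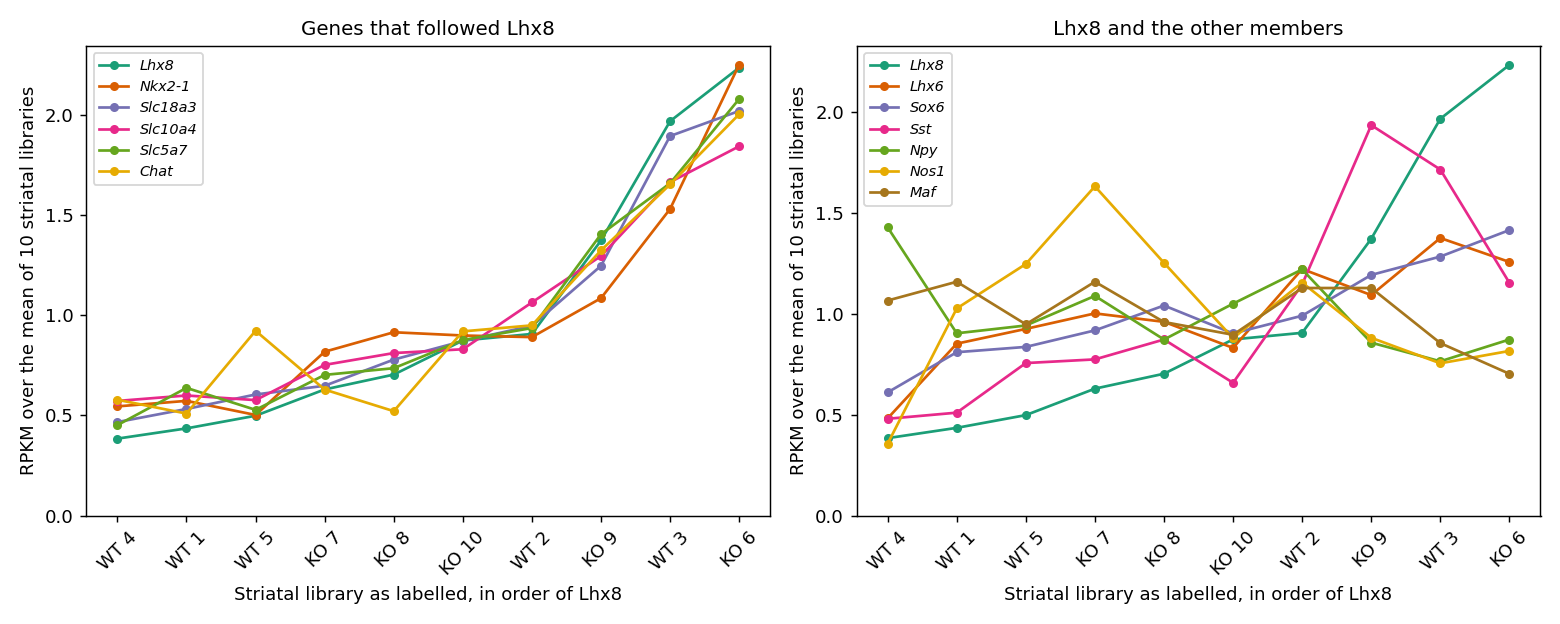
RPKM of each gene divided by its mean over the 10 striatal libraries (vertical axis), with libraries as labelled in the order of their Lhx8 level (horizontal axis). In the left panel Nkx2-1, Slc18a3, Slc10a4, Slc5a7 and Chat are drawn beside Lhx8. In the right panel Lhx6, Sox6 and Sst are higher toward the right, while Npy, Nos1 and Maf are not. Lines join libraries to guide the eye only.

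Over the 10 striatal libraries, all 45 pairs of members were correlated on log2(RPKM + 1), a step added after the data were seen. All genes of a library share its dissection and depth, in which the libraries differ. A Benjamini-Hochberg adjusted Pearson p below 0.05 over the 45 (permutation test) was found for 22 pairs, 20 positive and 2 negative. Lhx8 and Slc18a3 ranked the libraries identically (Pearson r = 0.99, permutation adjusted p = 0.000225, Spearman rho = 1, adjusted p = 0.00045, both from the smallest p that 100000 permutations can give). The r was 0.99 without the 2 libraries farthest from the median of Lhx8, and 1 on deviations from the means of the labelled genotypes. Lhx8 and Nkx2-1 had r = 0.96 (permutation adjusted p = 0.000225) and rho = 0.92 (adjusted p = 0.00379), with r = 0.91 without the 2 farthest libraries. Lhx8 and Sox6 had r = 0.94 (permutation adjusted p = 0.000225) and rho = 0.94 (adjusted p = 0.0024), with r = 0.88 without the 2 farthest. Lhx8 and Chat had r = 0.93 (permutation adjusted p = 0.00135) and rho = 0.85 (adjusted p = 0.00959), with r = 0.78 without the 2 farthest.

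Lhx6 was most like Sox6 among the members, with r = 0.89 (permutation adjusted p = 0.00315), rho = 0.89 (adjusted p = 0.0061) and r = 0.78 without the 2 farthest libraries. Lhx6 and Sst had r = 0.8 (permutation adjusted p = 0.00922) and rho = 0.9 (adjusted p = 0.00506), with r = 0.75 without the 2 farthest. The negative pairs were Npy with Sox6, at r = -0.74 (permutation adjusted p = 0.0361), rho = -0.72 (adjusted p = 0.0479) and r = -0.64 without the 2 farthest libraries, and Chat with Maf. The latter had r = -0.71 (permutation adjusted p = 0.048), rho = -0.59 (adjusted p = 0.132) and r = -0.046 without the 2 farthest libraries, so it rests on those libraries. Nos1 was in no pair with an adjusted p below 0.05. Npy and Nos1, products of the same striatal class, had r = -0.31 (permutation adjusted p = 0.47) and rho = 0.16 (adjusted p = 0.704), and r = 0.63 without the 2 libraries farthest by Npy.

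**Figure D4:**
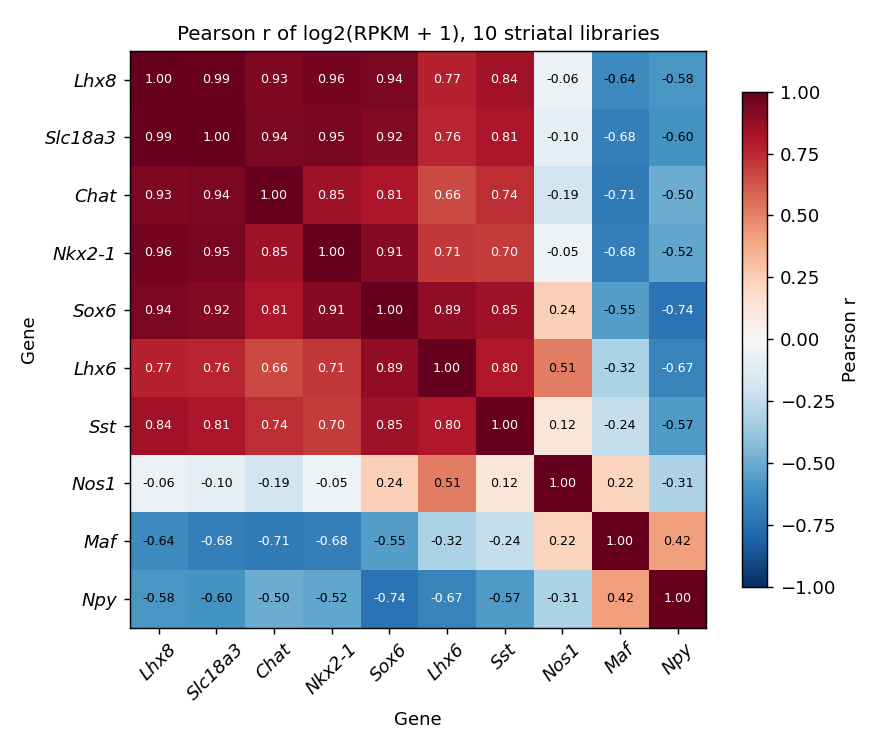
Pearson r of log2(RPKM + 1) for every pair of the 10 genes over the 10 striatal libraries, printed in each cell and coloured from -1 (blue) to 1 (red). Lhx8, Slc18a3, Chat, Nkx2-1, Sox6, Lhx6 and Sst form a block of positive values, with Lhx8 and Slc18a3 the highest at 0.99, and Npy, Nos1 and Maf lie outside it.

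Set against all other genes passing the filter in striatum, 14947 of them, the pattern of Lhx8 was most like that of Slc18a3 (r = 0.993), Slc10a4 (r = 0.988) and Slc5a7 (r = 0.985), given as a description. Slc10a4 encodes a vesicular protein of cholinergic and monoaminergic neurons, and Slc5a7 encodes the choline transporter of cholinergic terminals. Slc10a4 ranged from 5.43 RPKM in wild type replicate 4 to 17.5 RPKM in knockout replicate 6, and Slc5a7 from 0.675 to 3.11 RPKM in the same libraries. The genes most like Lhx6 included Kcns2, a potassium channel subunit (r = 0.976), and Ndst3, an enzyme of heparan sulfate synthesis (r = 0.968). Those most like Sst were Fam43b (r = 0.981), Amz1 (r = 0.957) and Minar2 (r = 0.953). For Chat they were Tpgs2 (r = 0.974), Ppp1r3d (r = 0.956) and Zap70 (r = 0.949), over values that rest on few reads.

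Markers of other cells also varied across striatal libraries. The summed level of 5 markers of pallial glutamatergic neurons, the excitatory neurons of cortex and hippocampus, ran from 80.3 to 468 RPKM in striatum labelled wild type and from 120 to 453 RPKM in striatum labelled knockout. It was lowest in wild type replicate 3 (80.3), knockout replicate 6 (120) and knockout replicate 9 (132), the 3 libraries with the most Lhx8. Wild type replicate 5 (468) and knockout replicate 7 (453) were highest and had 4.1 and 5.18 RPKM of Lhx8. Wild type replicate 4 had the least Lhx8 at a pallial sum of 161 RPKM, and held the meningeal markers. The summed level of 8 markers of spiny projection neurons, the main neurons of striatum, ran from 338 to 586 RPKM in striatal and from 46.7 to 90.7 RPKM in hippocampal libraries. None of these pallial and spiny neuron markers was at 0 in any striatal library. The part of dissection in the levels of Lhx8 and Slc18a3 was not tested.

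Other genes of the same pathways were read from lists that do not contain the members. Of 11 cholinergic genes, all tested between tissues, 7 were called higher and 2 lower in striatum, against 22.9% and 25.2% of all genes. However, 6 of the 11, all called higher, reached the filter in striatum alone and so had to differ. Among them were Isl1, a LIM homeodomain factor also used by spiny projection neurons (difference 5.07 ± 0.15), and Chrm2, the muscarinic M2 receptor (1.71 ± 0.062). Of the other 5, 1 was called higher, Slc10a4, and 2 lower. The zinc finger genes Zic4 and Zic1 were lower, by -1.09 ± 0.2 and -1 ± 0.27 (adjusted p = 0.000178 and 0.00498). Of 18 interneuron genes of the medial ganglionic eminence, 14 were tested and 6 were called higher and 3 lower in striatum. Those with small p included Ackr3 (0.81 ± 0.092) and Th (1.48 ± 0.21, measured above the filter in striatum alone) among the higher and Cxcr4 (-1.73 ± 0.097), Npas1 (-0.89 ± 0.14) and Satb1 (-0.61 ± 0.14) among the lower. Cxcr4 and Ackr3 encode the receptors of the chemokine CXCL12, which guides migrating interneurons, and differed in opposite directions.

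Of 12 genes of interneurons of the caudal ganglionic eminence, a neighbouring source of interneurons, 10 were tested. Of these, 2 were called higher and 8 lower in striatum, against 22.9% and 25.2% of all genes tested. Whether interneurons or other cells carried these genes in either tissue was not tested. Cck, a neuropeptide gene also used by excitatory neurons, was lower by -3.13 ± 0.43 (adjusted p = 5.38e-06) and Calb2, which encodes calretinin, by -2.73 ± 0.35 (adjusted p = 2.29e-06), while Sp8 was higher by 1.06 ± 0.22 (adjusted p = 0.000499). All 8 genes of GABA synthesis, transport and the Dlx family were called higher in striatum, against 22.9% of all genes tested. Those with the smallest p were Dlx6 at 3.69 ± 0.11, Dlx5 at 2.4 ± 0.087 and Dlx2 at 1.86 ± 0.085. Gad2 at 2.24 ± 0.12 and Slc32a1 at 2.06 ± 0.12 differed by more than Dlx2. Whether interneurons or other striatal neurons carried these 8 genes was not tested. Between labelled genotypes 0 genes of these 4 lists were called in either tissue with limma. At an unadjusted p below 0.05, Lmo3 was higher in striatum labelled knockout (0.41 ± 0.18, adjusted p = 0.987), and in hippocampus Dlx6 was higher (0.28 ± 0.12) and Sp8 lower (-0.38 ± 0.13, adjusted p = 0.711 for both).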

How the data were processed

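Titles gave the group and replicate of each library. Knockout replicate 10 of hippocampus has striatum as its tissue tag, but was kept in hippocampus, which its title and description name. Per the labels' protocols, the kit was TruSeq mRNA Stranded and the reads were single, on a NextSeq500. The submitters' processing notes name mm10, BWA 0.7.4, featureCounts, HTSeq, DESeq2 and cutadapt 1.3, among others, in roles not given there.

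The authors deposited RPKM for 27179 genes, in which 51.1% of the values, those of 1 or more, had lost the decimal mark. Each mark was placed where the RPKM times the library total and a common gene length gave whole reads (within 0.001), and, among such places, closest to the other libraries of the tissue, so restored values lean toward the tissue's other libraries. The placing was tested on simulated data, and is not free of error. In hippocampal knockout replicate 7 the recovered reads summed to 27235626, above its library total of 20146901, so marks of some very high genes are misplaced there. The members held too few reads to account for that excess. Recovered reads also summed to more than the library total in most striatal libraries, by smaller margins, as in knockout replicate 6 (27687849 against 26579421). The cause of these smaller excesses was not tested. The genes with unsure marks, 91 in striatum and 280 in hippocampus, were left out of that tissue's tests, a rule set after the data were seen, and none of the 10 members was among them. The scores in the authors' deposited tables of comparisons (log2 fold change, SE and p) had lost marks in the same way and a header shifted by 1 column. Only values below 1 were used from them, and their method is not stated.

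Differences in log2(RPKM + 1) were tested with limma 3.58.1 under R 4.3.3, with its trend and robust settings and no covariate, within each tissue for genotype and over all 20 libraries for tissue and interaction. Adding 1 understates changes of low genes. Members under the filter had an exact permutation test in Python 3.11.15. The unit was not counts, so the branch planned for RPKM was used. Other pseudocounts, filters, scalings, voom on recovered reads, and fits without libraries were tried. No replicates were merged, since all 40 pairs within groups differed beyond counting noise (chi-square at least 11.7 per degree of freedom). Named genes were all members, the list genes with the smallest p in each direction and the 3 genes most like Lhx6, Lhx8, Chat and Sst, of which some are not reported here. The members and lists were chosen with earlier results of these data known. Symbols and positions came from RefSeq annotation of GRCm38, and 25275 genes had a symbol.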

Additional observations from a re-analysis of the deposited data

Results flagged for a closer look

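The 40 groups of 5 libraries were 1 per member, tissue and labelled genotype. In 7 of them a single library lay farther from the rest than Dixon's 95% critical value of 0.71 allows. In independent groups of normally distributed values, chance does this in about 1 in 20. The members share libraries and the hippocampal Chat groups are nearly all 0, so that rate is no measure for the 7. In striatum the outlying library was knockout replicate 6 for Nkx2-1, at 27.8 RPKM. In hippocampus, knockout replicate 8 gave 3 of the 7. Sst at 88.9 RPKM and Npy at 41.5 RPKM were the highest there and Sox6 at 2.58 RPKM the lowest of their group. That library is also the one with short genes high and long genes low. Sox6 was highest of its group in hippocampal wild type replicate 4, at 9.22 RPKM, in a group that otherwise spanned 8.22 to 8.51 RPKM. Chat stood out at 0.0269 RPKM in hippocampal wild type replicate 2 and at 0.0126 RPKM in hippocampal knockout replicate 10, from 2 reads and 1 read in groups otherwise at 0.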

How the results depend on the processing

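The counts of members called between labelled genotypes were 0 in both tissues under every alternative run. Between tissues the count was 6, and ranged up to 7 without the filter, where Chat was tested, and from 6 to 8 with 1 library left out. The count of all genes called between genotypes in striatum, 2, was 1 without the filter, 1 with the stricter filter of 1 RPKM, 1 with unsure genes kept (an alternative chosen after seeing the data) and 0 without codes 7_1 and 7_6. It ranged from 0 to 2 with 1 library left out. With 1 library left out, 5 differences changed sign. Between genotypes in striatum, Lhx6 ranged from -0.072 (without wild type replicate 4) to 0.29 and Maf from -0.16 to 0.0065 (without knockout replicate 6). In hippocampus, Nkx2-1 ranged from -0.15 to 0.069 and Maf from -0.15 to 0.00028 (both without wild type replicate 4). Between tissues, Nos1 ranged from -0.039 (without hippocampal knockout replicate 8) to 0.24, and was -0.17 in libraries labelled wild type alone. Nkx2-1 in hippocampus was 0.016 without knockout replicate 8 and both codes, chosen after seeing the data. None of these was called, and the cause was not tested. With the replicate number as a block, 7173 genes and 6 members were called between tissues, against 7408 and 6 without it. Same-numbered libraries deviated together only weakly (r from -0.18 to 0.2 over 10 pairs, 6 over 0.1, and 3 of 10 striatal libraries best matched by their own number), and the labels do not say that a number marks an animal, so the fit without the block was kept. Whether same-numbered libraries share an animal was not tested by these values, and Ikzf2 and Wdfy1 follow the code across tissues. No paired analysis was possible between genotypes because the groups share no replicate numbers. Depth limits Chat in both tissues and Lhx8 and Slc18a3 in hippocampus.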

Other observations

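Wdfy1, which lies on chromosome 1 like Ikzf2 and was the gene called higher in striatum labelled knockout, was named after its values were seen. It measured 30.3 to 36.4 RPKM in striatum labelled knockout and 8.18 to 8.93 RPKM in 4 of the 5 striatal libraries labelled wild type, with 17.2 RPKM in wild type replicate 4. In hippocampus the library of the same code, wild type replicate 4, held 15 RPKM, between the 6.31 to 7.11 RPKM of wild type replicates 1 to 3 and the 21.5 to 23.4 RPKM of knockout replicates 7, 9 and 10, and close to the 15.3 RPKM of knockout replicate 8. The libraries of codes 7_1 and 7_6 held 21.4 and 7.99 RPKM there, against their labels as for Ikzf2.

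Over 8 lists of markers of other cells, 0 genes were called between labelled genotypes in either tissue with limma. At an unadjusted p below 0.05, 4.01% of all genes tested in striatum passed. Of 6 genes of oligodendrocyte precursors, which also use Sox6, 2 passed and were higher in striatum labelled knockout, among them Olig1 (0.4 ± 0.16, adjusted p = 0.987). Both hemoglobin genes tested passed and were lower, among them Hbb-bs (-0.81 ± 0.17, adjusted p = 0.8). Of the 8 microglial genes, which share Maf as a marker of the lineage, 7 were called lower in striatum than in hippocampus. Among all genes tested 25.2% were called lower. The median difference of the 8 was -0.58, while Maf itself differed by -0.4. The summed microglial level was 17.3 to 32.5 RPKM in striatal and 37.4 to 60.4 RPKM in hippocampal libraries. The part of microglia in the level of Maf was not tested. Of the 6 genes of oligodendrocyte precursors, 5 were called higher in striatum (median 0.56), against 22.9% of all genes tested.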
